A study of Mus musculus with 4 samples.

Results

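The tricarboxylic acid cycle is represented here by 9 genes, 1 lead enzyme for most steps of the cycle plus pyruvate carboxylase, taken by gene symbol from a table of 24341 genes. They are Cs, Idh3a, Idh2, Ogdh, Sucla2, Sdha, Fh1, Mdh2 and Pcx, and all 9 were found and passed the filter on low values, a mean of at least 1 FPKM. FPKM is a level scaled to transcript length and to the mapped fragments of each library, and can be compared between genes. The table's header names no unit, and its values were taken as FPKM because the submitters' processing notes name Cufflinks.

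The cells were CAD cells, a mouse catecholaminergic line that grows neurite-like processes once serum is withdrawn. All cultures were kept in serum-free medium for 5 days. The treated cultures received 20 µM of ACSS2i, a quinoxalinyl urea that inhibits the acetyl-CoA synthetase ACSS2, for 24 h, and the controls received DMSO for the same time. Each group had 2 polyadenylated RNA libraries of this 1 cell line, and nothing in the labels says whether the cultures were grown independently. The p-values therefore speak only of library-to-library spread, and that may be technical in part.

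The cycle runs in the mitochondrial matrix. It condenses acetyl-CoA with oxaloacetate to citrate, oxidises the carbon to carbon dioxide in a series of dehydrogenase steps, and hands the electrons to the respiratory chain. Pyruvate carboxylase refills it by making oxaloacetate from pyruvate. Citrate that leaves the mitochondrion is cleaved by ATP-citrate lyase to cytosolic acetyl-CoA, the same product that ACSS2 makes from acetate, and this is the link between the cycle and the inhibitor in neurons and other cells.

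The libraries differed in depth, which was read from the steps between low values, and came to a nominal 7770000 and 9870000 fragments for ACSS2i replicates 1 and 2 and 11500000 and 3360000 for DMSO replicates 1 and 2. Such steps give depths relative to each other, and the absolute scale is approximate. The FPKM values summed to between 558458 and 675716 per library, highest in ACSS2i replicate 2. Of 18 markers of CAD cells and neurons 16 passed the filter on low values. Of these 0 were higher and 2 lower in ACSS2i without overlap, against 19.0% and 18.3% of all genes that passed it. Their median log2 fold change was -0.38, with 7 positive and 9 negative. The summed level of the 18 was 5365 and 4506 FPKM in ACSS2i and 8270 and 11560 FPKM in DMSO, most of it from chromogranin B, Chgb, a protein of secretory granules, at 4453 and 2509 FPKM in ACSS2i and 6801 and 10010 FPKM in DMSO (log2 fold change -1.30, unadjusted p = 0.0314, adjusted p = 0.655 by limma). Without Chgb the summed level was below both DMSO libraries in ACSS2i replicate 1 and above both in ACSS2i replicate 2. The growth-cone protein gene Gap43 was at 210.4 and 436 FPKM in ACSS2i and 421 and 367 FPKM in DMSO, with overlap. The noradrenaline transporter Slc6a2 stood at the table's floor of 0.01 FPKM in all 4 libraries, and tyrosine hydroxylase Th, a defining enzyme of catecholaminergic cells, was low, at 4.09 and 2.92 FPKM in ACSS2i and 3.53 and 3.16 FPKM in DMSO. The summed level of 5 markers each was 0.521 and 1.32 FPKM in ACSS2i against 0.174 and 0.438 FPKM in DMSO for astrocytes, 1.34 and 0.651 against 1.27 and 0.824 FPKM for microglia and leukocytes, 0.418 and 0.497 against 0.579 and 0.679 FPKM for fibroblasts, 2.18 and 1.34 against 1.24 and 1.55 FPKM for endothelium, and 4.36 and 5.19 against 5.05 and 4.66 FPKM for oligodendrocytes. The oligodendrocyte markers Mag and Olig2 and the fibroblast markers Col1a2 and Lum stood at the floor in all libraries.

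None of the 9 cycle genes passed an adjusted p of 0.05 (limma on log2(FPKM + 1), Benjamini-Hochberg over 11486 genes), and their adjusted p ran from 0.618 to 0.931. Of all genes tested 0.0261% passed. All 9 genes had a positive log2 fold change of ACSS2i over DMSO, from 0.19 to 0.85 with a median of 0.36, where the median over all tested genes was 0.020 and 52.2% of them were positive. In 5 of the 9, Idh2, Ogdh, Sdha, Fh1 and Pcx, both ACSS2i libraries lay above both DMSO libraries, a pattern found in 19.0% of all tested genes and in 19.6% of those averaging 5 FPKM or more. In 0 of the 9 did both lie below, a pattern found in 18.3% of tested genes, and in the other 4, Cs, Idh3a, Sucla2 and Mdh2, the groups overlapped. At an unadjusted p under 0.05, 3 genes stood higher, Idh2, Sdha and Fh1, as did 3.29% of all tested genes. That count was 5 without ACSS2i replicate 1, where the share of all tested genes was also larger, at 8.57%. It was 0 without ACSS2i replicate 2, DMSO replicate 1 or DMSO replicate 2, where the shares of all tested genes were 5.61%, 1.65% and 1.87%. The median log2 fold change was 0.74 without ACSS2i replicate 1 and 0.24 without DMSO replicate 1. Without ACSS2i replicate 2, 7 of the 9 fold changes were positive, against 50.8% of all tested genes. With 1 library against 2, separation is easier to meet: ACSS2i was higher without overlap in 9 genes without ACSS2i replicate 1 (39.1% of all tested genes), in 8 without DMSO replicate 2 (31.3%), and in 5 without ACSS2i replicate 2 (38.3%) or without DMSO replicate 1 (32.2%). With 2 libraries a side, the smallest two-sided p of an exact permutation test is 0.333. In bulk RNA a larger share of cells rich in these enzymes and more of the transcript per cell cannot be told apart.

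**Figure D1:**
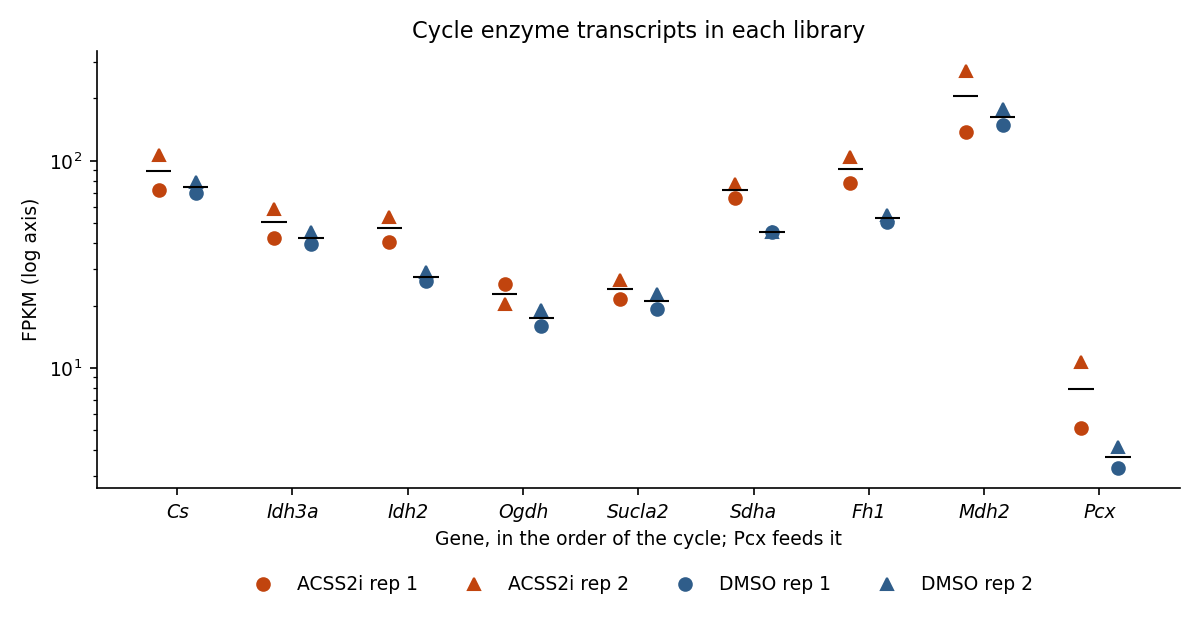
FPKM (log axis) of the 9 cycle enzymes in each library, ACSS2i in red at the left of each pair and DMSO in blue at the right, with circles for replicate 1, triangles for replicate 2 and a bar at each group's mean. The groups are apart for Idh2, Ogdh, Sdha, Fh1 and Pcx and overlap for Cs, Idh3a, Sucla2 and Mdh2.

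Levels spanned a wide range. Averaged over the 4 libraries the order was Mdh2, Cs, Fh1, Sdha, Idh3a, Idh2, Sucla2, Ogdh and Pcx, in falling level. Mdh2 averaged 205 ± 94.9 FPKM in ACSS2i and 163 ± 20.3 FPKM in DMSO, and Pcx 7.91 ± 3.94 FPKM in ACSS2i and 3.71 ± 0.609 FPKM in DMSO (SD, n = 2 each). Among tested genes Mdh2 stood at the 96.5th percentile of mean level and Pcx at the 28.1st. Neighbours in this order were not always separable: in DMSO the values of Sdha and Idh3a overlapped, and in ACSS2i those of Cs overlapped with Fh1 and with Sdha, those of Idh3a with Idh2, and those of Sucla2 with Ogdh. Pcx rested on the fewest fragments, a nominal 165 and 438 in the ACSS2i libraries and 157 and 58 in the DMSO libraries, with the longest transcript of the GENCODE M21 annotation. The next lowest was Sucla2 in DMSO replicate 2, at 170. These nominal counts limit precision by counting error only, and fragments of one PCR product are not independent molecules.

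Entry into the cycle is by citrate synthase. Cs (chromosome 10, 128337734 to 128362479, plus strand; GRCm38 as for all coordinates here), the enzyme that joins acetyl-CoA to oxaloacetate, was at 72.3 and 106.8 FPKM in ACSS2i and 69.7 and 79.3 FPKM in DMSO. Only ACSS2i replicate 2 stood above both DMSO libraries, and the log2 fold change was 0.24 ± 0.28 (SE; adjusted p = 0.906), with a 95% interval from -0.45 to 0.93. Without ACSS2i replicate 2 the log2 fold change was -0.039. Csl, a citrate synthase-like gene that could share reads with Cs, was listed at 0.01 FPKM in every library. Aco1, the cytosolic aconitase that doubles as an iron-regulated RNA-binding protein, was at 5.37 and 5.49 FPKM in ACSS2i and 3.01 and 4.50 FPKM in DMSO (log2 fold change 0.45 ± 0.27, SE; adjusted p = 0.804).

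The isocitrate step has enzymes of different cofactor, and they did not have the same values. Idh3a (chromosome 9, 54586334 to 54604661, plus strand), the catalytic subunit of the NAD-dependent enzyme, was at 42.6 and 58.7 FPKM in ACSS2i and 39.8 and 45.3 FPKM in DMSO, so that ACSS2i replicate 1 lay between the DMSO libraries (log2 fold change 0.23 ± 0.26, SE). Idh2 (chromosome 7, 80094846 to 80115392, minus strand), the mitochondrial NADP-dependent enzyme that supplies NADPH, was at 40.5 and 53.8 FPKM in ACSS2i and 26.4 and 28.9 FPKM in DMSO. Both ACSS2i libraries were higher, with a ratio of means of 1.71 and a log2 fold change of 0.74 ± 0.25 (SE; unadjusted p = 0.0258, adjusted p = 0.618). The other subunits of the NAD-dependent enzyme, Idh3b and Idh3g, had log2 fold changes of 0.37 and 0.33. Idh1, the cytosolic NADP-dependent enzyme, was at 30.2 and 82.4 FPKM in ACSS2i and 23.0 and 24.6 FPKM in DMSO, the highest log2 fold change among the other cycle subunits at 1.04 ± 0.47 (SE; adjusted p = 0.751), with most of it in ACSS2i replicate 2. Within each library the ratio of Idh2 to Idh3a was 0.951 and 0.917 in ACSS2i, against 0.663 and 0.638 in DMSO. The ratio of Idh2 to Idh1 overlapped between groups, at 1.34 and 0.653 in ACSS2i and 1.14 and 1.18 in DMSO. Of 12 ratios between cycle enzymes computed in each library, 6 were higher in ACSS2i without overlap, 0 were lower without overlap and 6 overlapped. Each had 1 of the 9 genes as its numerator, some of them repeatedly, and no share over other gene pairs was computed. The count therefore largely restates the levels of these genes and is not separate support. Those that overlapped were Idh2 to Idh1, Idh3a to Idh3b, Idh3a to Idh3g, Ogdh to Dlst, Sucla2 to Suclg2 and Mdh2 to Mdh1.

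Ogdh and Sucla2 carry the next steps. Ogdh (chromosome 11, 6291633 to 6356642, plus strand), the decarboxylating subunit of the 2-oxoglutarate dehydrogenase complex, was at 25.3 and 20.3 FPKM in ACSS2i and 15.9 and 19.1 FPKM in DMSO. The groups did not overlap, although ACSS2i replicate 2 and DMSO replicate 2 lay close, and the log2 fold change was 0.36 ± 0.24 (SE; adjusted p = 0.812). After short RNA genes were dropped and the library sums made equal it was 0.27, and the count of genes with no overlap was then 4 of 9. Under that scaling the median over all tested genes was -0.065. The share of all tested genes with no overlap is not given for it, so this count has no background beside it. Ogdh was also the 1 gene of the 9 in which ACSS2i replicate 2 was below ACSS2i replicate 1. Its partners in the complex, the succinyltransferase Dlst and the shared dehydrogenase Dld, had log2 fold changes of 0.32 and 0.27, and the paralog Ogdhl, a brain form, was at 15.1 and 9.21 FPKM in ACSS2i and 12.9 and 13.3 FPKM in DMSO. The related Dhtkd1, which acts on 2-oxoadipate, had a log2 fold change of 0.048. Sucla2 (chromosome 14, 73525319 to 73596142, plus strand), the ATP-forming subunit of succinyl-CoA ligase, had the lowest log2 fold change of the 9 at 0.19 ± 0.24 (SE; adjusted p = 0.913). It was at 21.6 and 26.6 FPKM in ACSS2i and 19.3 and 22.7 FPKM in DMSO. Its GTP-forming counterpart Suclg2 was at 35.1 and 29.5 FPKM in ACSS2i and 28.2 and 22.8 FPKM in DMSO, without overlap, and the shared subunit Suclg1 overlapped, with a log2 fold change of 0.13.

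Succinate dehydrogenase, which is also complex II of the respiratory chain, is the step with the closest DMSO values among the 9 genes. Sdha (chromosome 13, 74322254 to 74350280, minus strand), its flavoprotein subunit, was at 66.5 and 77.4 FPKM in ACSS2i and 45.2 and 45.3 FPKM in DMSO. Both ACSS2i libraries stood above the DMSO libraries, with a ratio of means of 1.59 and a log2 fold change of 0.65 ± 0.23 (SE; unadjusted p = 0.0304, adjusted p = 0.65). Of the other subunits, the membrane anchors Sdhc and Sdhd had log2 fold changes of 0.40 and 0.27 without overlap between groups, and the iron-sulfur subunit Sdhb was at 182.6 and 283 FPKM in ACSS2i and 203 and 175.5 FPKM in DMSO, with overlap. The ratio of Sdha to Sdhb was 0.364 and 0.273 in ACSS2i and 0.222 and 0.258 in DMSO. To Sdhc it was 1.03 and 0.837 in ACSS2i and 0.796 and 0.757 in DMSO, and to Sdhd 1.36 and 1.15 in ACSS2i and 0.950 and 0.961 in DMSO. For these 3 subunits both ACSS2i ratios exceeded both DMSO ratios, as they did in 6 of the 12 ratios computed. All 3 share Sdha as numerator, so they are not independent of each other or of its level.

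The last steps from fumarate to oxaloacetate differed from each other. Fh1 (chromosome 1, 175600374 to 175625635, minus strand), fumarase, was at 78.0 and 104.5 FPKM in ACSS2i and 50.8 and 54.8 FPKM in DMSO. Both ACSS2i libraries were higher, with a ratio of means of 1.73 and a log2 fold change of 0.76 ± 0.26 (SE; unadjusted p = 0.025, adjusted p = 0.618). Mdh2 (chromosome 5, 135778480 to 135790398, plus strand), the mitochondrial malate dehydrogenase, was at 138 and 272 FPKM in ACSS2i and 149 and 178 FPKM in DMSO. ACSS2i replicate 1 lay below both DMSO libraries and ACSS2i replicate 2 above both, and without ACSS2i replicate 2 the log2 fold change turned to -0.24, against 0.25 ± 0.38 (SE) with all libraries. The cytosolic Mdh1 of the malate-aspartate shuttle was at 39.0 and 73.7 FPKM in ACSS2i and 42.4 and 29.0 FPKM in DMSO. The ratio of Fh1 to Mdh2 was 0.565 and 0.384 in ACSS2i and 0.341 and 0.308 in DMSO.

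Pcx (chromosome 19, 4510472 to 4621752, plus strand), pyruvate carboxylase, had the highest log2 fold change of the 9 at 0.85 ± 0.36 (SE; unadjusted p = 0.0577, adjusted p = 0.736) and a ratio of means of 2.13. It was at 5.13 and 10.7 FPKM in ACSS2i and 3.28 and 4.14 FPKM in DMSO, so the groups did not overlap and the higher value was that of ACSS2i replicate 2. Without ACSS2i replicate 1 the log2 fold change was 1.32, and without ACSS2i replicate 2 it was 0.39. At levels this low the added 1 FPKM understates the difference, and with a pseudocount of 0.1 it was 0.99. No other gene of the GENCODE M21 annotation shared exon bases with any of the 9 genes.

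**Figure D2:**
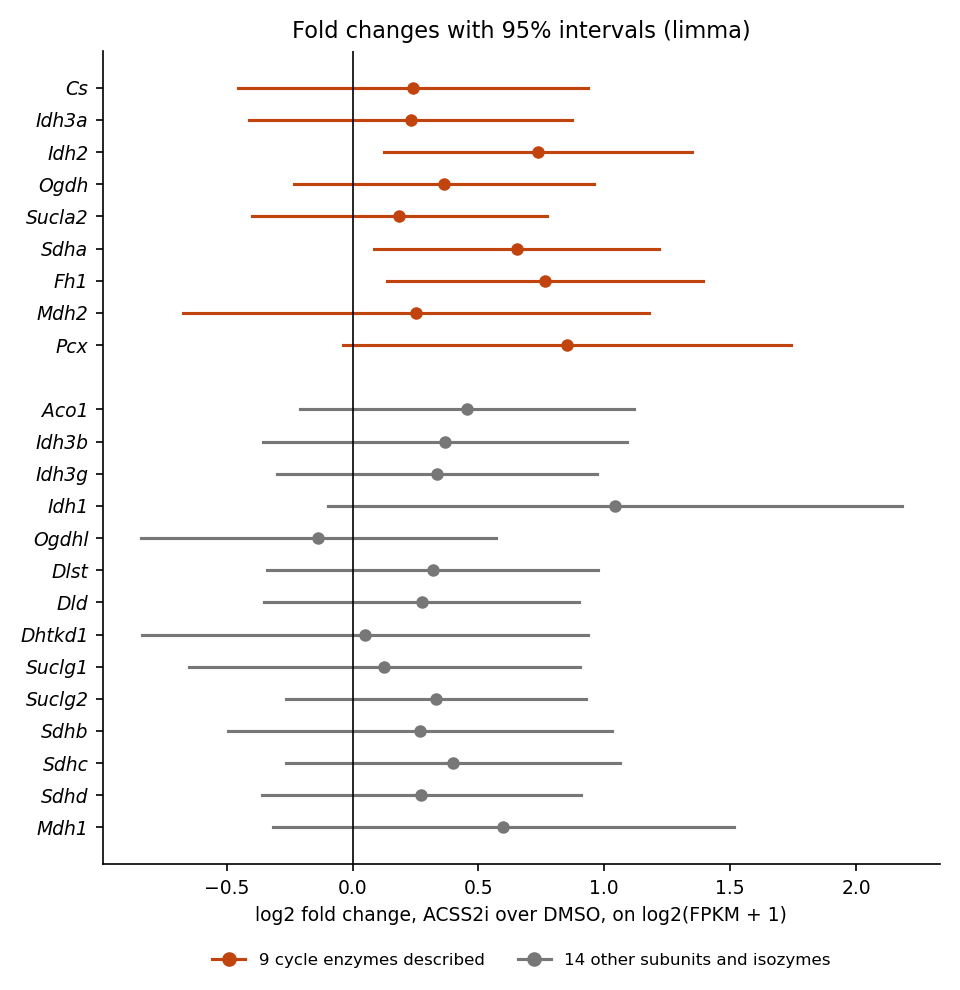
Log2 fold change of ACSS2i over DMSO with limma's 95% interval for the 9 cycle enzymes (red) and 14 other subunits and isozymes (grey). The intervals of Idh2, Sdha and Fh1 lie above 0 before adjustment for the number of genes, and the interval of each other gene includes 0.

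The promoters of the genes whose groups did not overlap are shown so that they can be compared by eye. RefSeq windows (GRCm38.p6) of 300 bases, 250 before and 50 after an annotated start, were matched for 8 of the 9 genes, 14 windows in all, with several starts for Ogdh and a pair for Pcx. For Ogdh the window printed has a match to the NRF1 core, and its windows at starts further upstream have none. They are printed 5′ to 3′ on the gene's strand, and capitals mark the motifs found on either strand, CCAAT or its reverse complement ATTGG, and the NRF1 core CATGCGC, which in Ogdh is on the opposite strand as GCGCATG.
Idh2, chr7:80115301-80115600, minus strand: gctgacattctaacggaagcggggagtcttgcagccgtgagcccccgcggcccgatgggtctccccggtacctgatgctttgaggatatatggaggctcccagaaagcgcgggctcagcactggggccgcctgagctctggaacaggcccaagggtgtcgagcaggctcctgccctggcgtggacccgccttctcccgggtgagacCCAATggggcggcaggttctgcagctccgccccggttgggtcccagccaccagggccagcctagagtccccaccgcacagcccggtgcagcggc
Sdha, chr13:74350191-74350490, minus strand: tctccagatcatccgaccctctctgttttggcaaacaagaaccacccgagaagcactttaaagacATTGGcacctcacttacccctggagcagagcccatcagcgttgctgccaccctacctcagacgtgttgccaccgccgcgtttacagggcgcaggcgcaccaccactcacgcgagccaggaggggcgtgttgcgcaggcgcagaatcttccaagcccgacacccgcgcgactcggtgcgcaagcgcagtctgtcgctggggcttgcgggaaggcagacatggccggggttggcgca
Fh1, chr1:175625586-175625885, minus strand: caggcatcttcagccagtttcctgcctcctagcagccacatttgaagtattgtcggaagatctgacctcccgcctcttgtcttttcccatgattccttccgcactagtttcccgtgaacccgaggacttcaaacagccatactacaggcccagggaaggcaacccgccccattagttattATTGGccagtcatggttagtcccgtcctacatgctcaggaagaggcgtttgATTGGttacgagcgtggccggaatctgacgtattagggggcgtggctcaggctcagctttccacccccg
Pcx, upstream start, chr19:4510222-4510521, plus strand: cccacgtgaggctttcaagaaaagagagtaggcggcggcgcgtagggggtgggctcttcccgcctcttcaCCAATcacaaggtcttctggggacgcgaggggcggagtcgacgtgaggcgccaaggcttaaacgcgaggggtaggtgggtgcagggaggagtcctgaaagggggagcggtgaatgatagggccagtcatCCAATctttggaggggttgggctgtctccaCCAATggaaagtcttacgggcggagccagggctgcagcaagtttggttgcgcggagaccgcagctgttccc
Ogdh, downstream start, chr11:6292308-6292607, plus strand: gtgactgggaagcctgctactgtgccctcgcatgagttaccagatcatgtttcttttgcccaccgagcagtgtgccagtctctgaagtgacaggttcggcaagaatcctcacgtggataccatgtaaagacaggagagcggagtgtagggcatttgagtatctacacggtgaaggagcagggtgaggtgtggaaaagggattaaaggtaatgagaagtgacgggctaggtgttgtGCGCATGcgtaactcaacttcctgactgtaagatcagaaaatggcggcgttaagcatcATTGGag
The full NRF1 motif, known from promoters of nuclear genes for mitochondria, and the ETS motif CCGGAAG were each in 0 of the 8 genes. Of all 27025 genes with a window, 290 held the full NRF1 motif and 9.93% the ETS motif. The NRF1 core, which lies within the full motif, was in 1 of the 8 (Ogdh) and in 4.41% of all genes, and the estrogen-related receptor half-site AAGGTCA in 1 of the 8 (Ogdh, at another start) and in 5.38%. CCAAT, a short motif looked for after the sequences had been read, was in 6 of the 8 genes and in 41.1% of all genes, and the genes without it were Sucla2 and Mdh2. The GC content of the 14 windows ran from 49.3% to 72.3%, where the median of all 32851 windows was 52.7%. A match is a description of letters, and the data hold no measurement of binding.

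Relative to citrate synthase in the same library, 4 of the 8 remaining genes kept the groups apart with ACSS2i higher, a pattern found for the ratio to Cs in 6.17% of all tested genes. The ratio to Cs was 0.559 and 0.504 for Idh2 in ACSS2i against 0.378 and 0.365 in DMSO. For Sdha it was 0.919 and 0.724 in ACSS2i and 0.649 and 0.572 in DMSO. For Fh1 it was 1.08 and 0.978 in ACSS2i and 0.730 and 0.691 in DMSO, so that fumarase transcripts were about level with those of Cs in ACSS2i and below them in DMSO. Pcx had 0.0709 and 0.1002 in ACSS2i and 0.0470 and 0.0522 in DMSO. Idh3a stayed within a narrow band, at 0.588 and 0.550 in ACSS2i and 0.571 and 0.572 in DMSO. The groups overlapped for Idh3a, Ogdh, Sucla2 and Mdh2. A ratio within a library is free of that library's scaling and shows unequal change between the genes, not which of them changed, and it was looked at after the levels were known.

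**Figure D3:**
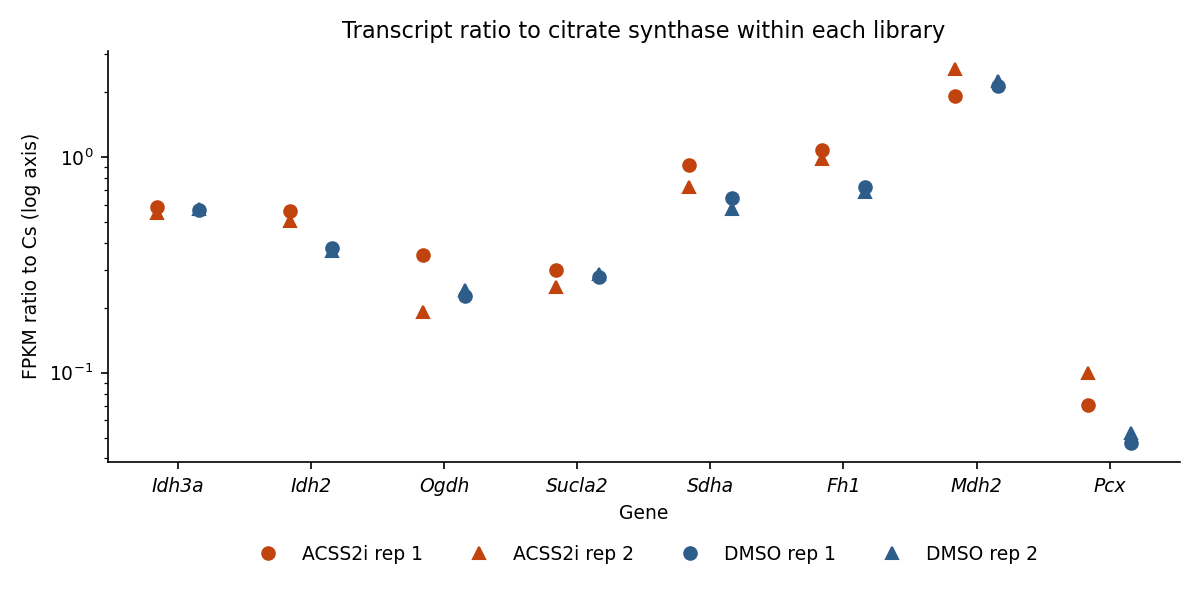
Ratio of each gene's FPKM to that of Cs in the same library (log axis), ACSS2i in red at the left and DMSO in blue at the right, circles for replicate 1 and triangles for replicate 2. Idh2, Sdha, Fh1 and Pcx have both ACSS2i ratios above both DMSO ratios.

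The replicates of a group were not alike. Summed over the 9 genes the level was 490 and 731 FPKM in ACSS2i and 419 and 477 FPKM in DMSO, or 0.0877% and 0.108% of the library's FPKM sum in ACSS2i and 0.0710% and 0.0809% in DMSO. ACSS2i replicate 2 exceeded replicate 1 in 8 of the 9 genes, where this held for 51.6% of all tested genes, and DMSO replicate 2 exceeded replicate 1 in 9 of the 9, against 49.7% of all tested genes. The median of the 9 genes relative to the DMSO mean was 0.39 in ACSS2i replicate 1 and 0.74 in ACSS2i replicate 2 on the log2 scale. A list of 11 housekeeping genes, without Sdha, was also higher in ACSS2i replicate 2 than in replicate 1. Its median was -0.12 in replicate 1 and 0.54 in replicate 2. Over all tested genes the median was 0.009 in ACSS2i replicate 1 and 0.013 in replicate 2. What the housekeeping difference shares with the values of the 9 genes in ACSS2i replicate 2 was not tested.

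**Figure D4:**
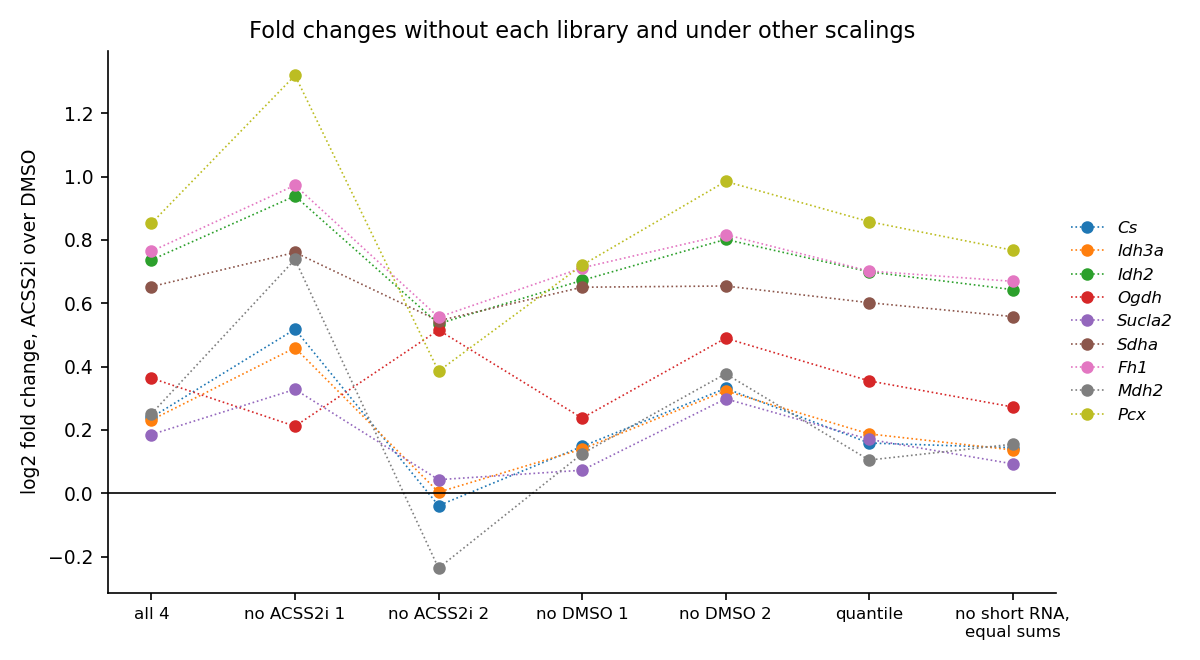
Log2 fold change of ACSS2i over DMSO (y axis) for each of the 9 genes with all 4 libraries, without each library in turn, under quantile normalization, and after dropping short RNA genes and equalising the library sums. Idh2, Sdha and Fh1 stay between 0.54 and 0.97 in the settings drawn, and Cs and Mdh2 fall below 0 without ACSS2i replicate 2.

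The rest of the cycle was described with lists chosen by function. Of 14 other subunits and isozymes given here, all tested, 13 had a positive log2 fold change, with a median of 0.32. In 7 both ACSS2i libraries lay above both DMSO libraries, and in 0 below. Of all tested genes 52.2% were positive, and 19.0% were higher and 18.3% lower in ACSS2i without overlap. Relative to the DMSO mean, the median of the 14 was 0.16 in ACSS2i replicate 1 and 0.50 in replicate 2. None of the 14 passed the adjusted threshold by limma, and 0 had an unadjusted p under 0.05. Of 7 genes that assemble succinate dehydrogenase or attach lipoate to the dehydrogenase complexes, 1 had no overlap, the lipoate synthase Lias at 46.9 and 38.0 FPKM in ACSS2i and 30.9 and 34.2 FPKM in DMSO, and the median was 0.089. Sdhaf1, Sdhaf4 and Lipt1 had log2 fold changes of -0.15, 0.14 and 0.12.

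Pyruvate enters through its mitochondrial carrier and the pyruvate dehydrogenase complex. Of 10 tested genes there, 6 were higher without overlap and 2 lower, with a median of 0.39. Among all tested genes 19.0% were higher and 18.3% lower in ACSS2i without overlap. Pdp2, a phosphatase that activates pyruvate dehydrogenase, was at 3.14 and 7.19 FPKM in ACSS2i and 1.30 and 1.98 FPKM in DMSO (log2 fold change 1.15, unadjusted p = 0.0278, adjusted p = 0.629), while its paralog Pdp1 was at 5.94 and 5.96 FPKM in ACSS2i and 7.13 and 8.88 FPKM in DMSO. Pdhb, a subunit of pyruvate dehydrogenase itself, had a log2 fold change of 0.59. The inhibitory kinase Pdk1 was at 0.401 and 4.70 FPKM in ACSS2i and 0.382 and 0.382 FPKM in DMSO, and thus differed in ACSS2i replicate 2.

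Of 19 genes of anaplerosis and carbon shuttles 15 were tested, 13 were positive, 6 were higher without overlap and the median was 0.34. Of all tested genes 52.2% were positive and 19.0% higher without overlap. Relative to the DMSO mean, the list's median was 0.074 in ACSS2i replicate 1 and 0.43 in replicate 2. Got2, the mitochondrial aspartate aminotransferase, was at 229 and 270 FPKM in ACSS2i and 158 and 197 FPKM in DMSO (log2 fold change 0.49 ± 0.27, SE; adjusted p = 0.791). Pccb and Mut, which feed propionate carbon in as succinyl-CoA, had log2 fold changes of 0.44 and 0.37, and Glud1, glutamate dehydrogenase, 0.43. Among 9 tested regulators of mitochondrial genes 2 were higher without overlap, against 19.0% of all tested genes, and the median was 0.16. Sirt3, a mitochondrial deacetylase, was at 4.68 and 5.72 FPKM in ACSS2i and 3.91 and 2.37 FPKM in DMSO (log2 fold change 0.60, adjusted p = 0.785). Gabpa, Nrf1 and Pprc1 had 0.25, 0.25 and -0.20. In all of these lists 0 genes passed the adjusted threshold by limma. Acss2 itself, the inhibitor's target, was at 12.8 and 26.6 FPKM in ACSS2i and 11.7 and 10.0 FPKM in DMSO.

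**Figure D5:**
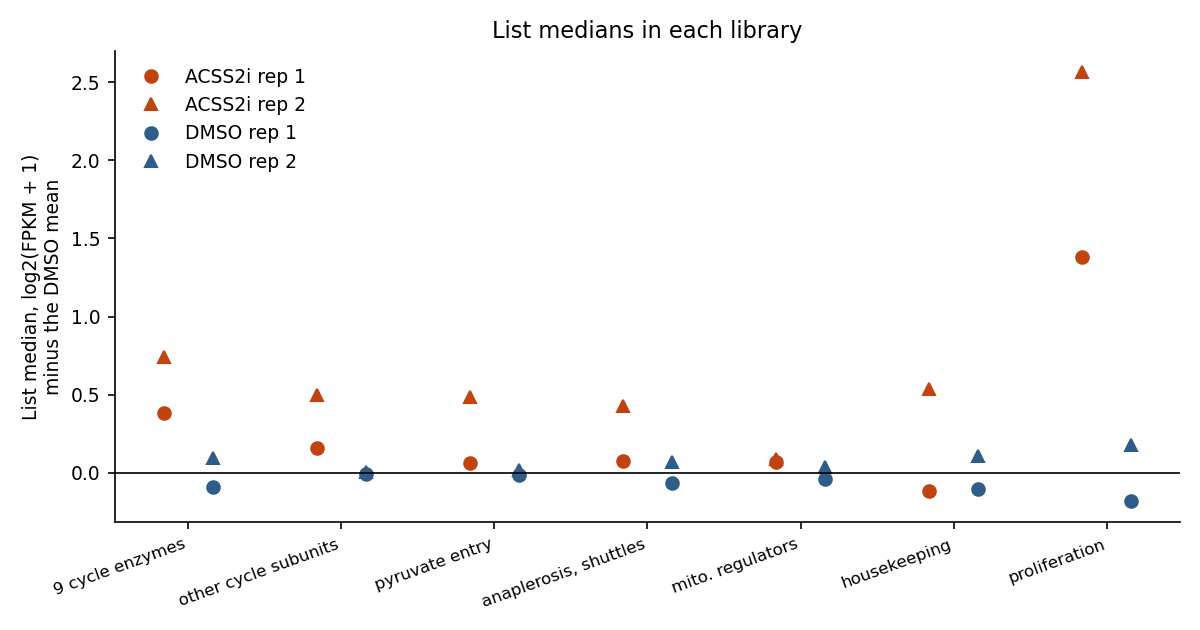
Median log2(FPKM + 1) of each gene list in each library, relative to the mean of the DMSO libraries, with ACSS2i in red and DMSO in blue, circles for replicate 1 and triangles for replicate 2. The 9 cycle enzymes are at 0.39 and 0.74 in ACSS2i, the housekeeping list is high in ACSS2i replicate 2 only, and the proliferation list is at 1.38 and 2.56 in ACSS2i.

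Genes of cell division stood higher in both ACSS2i libraries. In 14 of 14 proliferation genes both ACSS2i libraries exceeded both DMSO libraries, against 19.0% of all tested genes. By limma 14 had an unadjusted p under 0.05 with ACSS2i higher, as did 3.29% of all tested genes, and 0 passed over all genes. The list was chosen with earlier results of these data known, so these counts are description only. Its summed level was 186 and 363 FPKM in ACSS2i and 63.9 and 99.1 FPKM in DMSO. The proliferation antigen Mki67 was at 22.2 and 24.9 FPKM in ACSS2i and 1.18 and 4.13 FPKM in DMSO. In both groups the summed level was higher in replicate 2, as it was for the 9 cycle genes, and the part of proliferation in the levels of the cycle genes was not tested. Nor was that of the summed level of CAD cell and neuron markers, which with Chgb included was lower in both ACSS2i libraries. Without Chgb that sum was below both DMSO libraries in ACSS2i replicate 1 and above both in ACSS2i replicate 2. The median of the tested markers relative to the DMSO mean was -0.67 in ACSS2i replicate 1 and 0.17 in replicate 2.

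The genes whose pattern over the 4 libraries was most like the mean of the 9 were picked from 8553 genes averaging 5 FPKM or more by the root mean square distance of centred log2(FPKM + 1) values. They were Eif3h and Eif3m, subunits of a translation initiation factor, Cct6a, a subunit of the cytosolic chaperonin, Brcc3, a deubiquitinase, and Eif2b2, a subunit of a nucleotide exchange factor of translation, at distances from 0.0090 for Eif3h to 0.027 for Eif2b2. The 9 genes themselves lay 0.12 to 0.27 from their own mean, with Idh3a nearest and Ogdh farthest. Eif3h was at 387 and 516 FPKM in ACSS2i and 301 and 341 FPKM in DMSO.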

How the data were processed

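Polyadenylated RNA of 4 CAD cell cultures (2 ACSS2i, 2 DMSO) was made into ScriptSeq v2 libraries and sequenced on 1 NextSeq lane, per the labels' protocols. Per the submitters' processing notes, the tools were Cuffdiff, Cufflinks 2.2.1, STAR 2.3.0 and bcl2fastq 02.14.01.07, on the build mm10. The authors' deposited values were taken as FPKM because of Cufflinks; the header names no unit, and the adjustment of the table, its annotation and any use of strand are not given in the sources used here. One gene with a failure mark was left out, which left 24340.

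The 11486 genes averaging 1 FPKM or more were tested on log2(FPKM + 1) with limma 3.58.1 (R 4.3.3; mean-variance trend, two-sided, Benjamini-Hochberg over all tested genes), after a check on simulated data. Log2 fold changes are on this scale and understate changes of low genes. Depth was taken from the most common ratio of values up to 0.5 FPKM between libraries, and its absolute scale from genes with a single GENCODE M21 transcript. Named were the 9 genes, the other cycle subunits and isozymes, up to 4 genes of each other metabolic list by smallest unadjusted p, Acss2, Mki67 and the 5 genes most like the 9. The members and lists were chosen with earlier results of these data known. Alternatives were other pseudocounts, filters and scalings, a replicate block and leaving out each library. Mitochondrially encoded genes were not analysed here, and 1 gene of the cycle is not reported here.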

Additional observations from a re-analysis of the deposited data

How the results depend on the processing

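Of 108 log2 fold changes of single cycle genes recomputed under 12 alternatives, 106 kept their direction and their side of the threshold, and 2 turned negative, Cs and Mdh2, both without ACSS2i replicate 2; the cause was not tested. Without 1 library Cs ranged from -0.039 to 0.52 and Mdh2 from -0.24 to 0.74. In every alternative 0 of the 9 genes passed the adjusted threshold by limma. At an unadjusted p under 0.05 by limma there were 3 with all 4 libraries (with the replicate block Idh2, Fh1 and Pcx, without Sdha), or 2 with short RNA genes left out and equal sums. Over all tested genes, in either direction, 799 of 11486 had such a p in the main setting. With the replicate block it was 745 of 11486, and with short RNA genes left out 860 of 11392. The counts without 1 library are given above beside their shares of all tested genes. Over all genes the count of 3 became 6 when 0.1 was added in place of 1, 0 when 5 was added, 0 with no filter, 0 with short RNA genes left out, and 17 to 38 without 1 library, where only the complete pair informs the spread and the lone library is assumed to vary like it. The 5 genes with no overlap became 5 to 9 without 1 library (9 without ACSS2i replicate 1, 8 without DMSO replicate 2), since fewer libraries leave fewer orders to meet. The median of 0.36 ranged from 0.24 to 0.74 without 1 library, highest without ACSS2i replicate 1. With the replicate number as a block 8 genes were called over all genes and 0 of the 9. The main fit did not take the numbers as pairs. The deviations of same-numbered libraries correlated at -0.017 over all tested genes, which cannot show whether the 9 genes varied in pairs. Of the 9, replicate 2 exceeded replicate 1 in 8 in ACSS2i and in 9 in DMSO. Depth limits Pcx most, at a nominal 58 fragments in DMSO replicate 2.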
